A study of Mus musculus with 16 samples.

Results

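Expression of 34 genes of DNA repair and DNA damage signalling was followed in hematopoietic stem cells (HSC), which renew all blood lineages, and in common lymphoid progenitors (CLP), which give rise to lymphocytes. The 34 genes were taken by name, and they are 34 of 18193 genes that the array platform represents with a probe set of a single gene symbol. Each gene was read from the probe set of highest mean level over all 16 arrays, and 12 of the 34 have only 1 probe set. By role they comprise 3 genes of mismatch repair, 7 of base excision and single-strand break repair, 4 of nucleotide excision repair, 6 of damage signalling, 4 of homologous recombination and its helicases, 5 of end joining and 5 of the Fanconi pathway. All 34 entered every test. A probe set was taken as above background on an array when it exceeded that array's 40th percentile. By this measure 33 of the genes were above background on all 16 arrays, and Lig4, the end joining ligase, on 10.

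The RNA came from cells sorted from the bone marrow of C57Bl6 mice, and none of the groups carries a label of any treatment. Wild-type HSC came from young mice of 9 to 12 weeks (3 arrays) and from old mice of 24 months (3 arrays). At 32 weeks there were 3 arrays of HSC with the genotype Polgtm1Lrsn-/-, titled Mutator, and 3 arrays of Polgtm1Lrsn+/+ wild type. The mutator allele removes the proofreading of Polg, the polymerase that copies mitochondrial DNA, in every cell of the mouse and not in HSC alone. Wild-type CLP came from mice of 8 to 12 weeks and were sorted by the surface protein Ly6D, with 2 arrays of Ly6D-positive cells, which are biased towards the B lineage, and 2 of Ly6D-negative cells. The series set mutator HSC and their 32-week controls beside young and old HSC. Replicates are titled biological, and the labels do not say whether animals were pooled.

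Cells keep several repair routes side by side. Mismatch repair corrects copying errors, excision repair replaces damaged bases or short stretches of one strand, and end joining or homologous recombination rejoins broken chromosomes. The Fanconi pathway handles links between the strands, and the kinases Atm and Atr pass the signal of a break or a stalled fork on to the kinases Chek2 and Chek1. Many of these genes are transcribed most in dividing cells, and developing lymphocytes use end joining to seal the breaks made while antigen receptor genes are assembled.

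Some properties of the arrays bear on every value below. Actin probe sets at the 3 prime and 5 prime ends of the transcript gave a log2 ratio, a measure of RNA and cRNA integrity, that was 2.20 to 2.27 in old and 2.39 to 2.61 in young HSC, and 4.24 to 5.26 in all 6 arrays of 32 weeks. In CLP it was 2.11 to 2.52 on 3 arrays and 3.85 on Ly6D-positive replicate 2. Xist was at 9.12 to 16.8 and the Y-linked Eif2s3y at 423 to 758 on 32-week wild-type replicate 3 and on all 4 CLP arrays, against 3507 to 11022 and 6.85 to 12.7 on the other arrays, although every sample is labelled female. Young replicates 2 and 3 differed from each other by a median of 0.10 on the log2 scale, the smallest such difference within a group, where other pairs differed by 0.135 to 0.495. The median SD of the 34 genes between replicates was 0.153 in young HSC, 0.185 in old HSC, 0.273 in mutators, 0.405 in their wild-type controls, and 0.335 and 0.348 in Ly6D-positive and Ly6D-negative CLP. The marker lists followed the labels, with a mean log2 level of 9.92 to 11.2 for 5 HSC markers in HSC and 5.83 to 6.78 in CLP, and of 10.03 to 11.9 for 5 CLP markers in CLP and 5.14 to 5.71 in HSC. Fewer cells of one type and less RNA per cell cannot be told apart in such bulk samples.

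**Figure D1:**
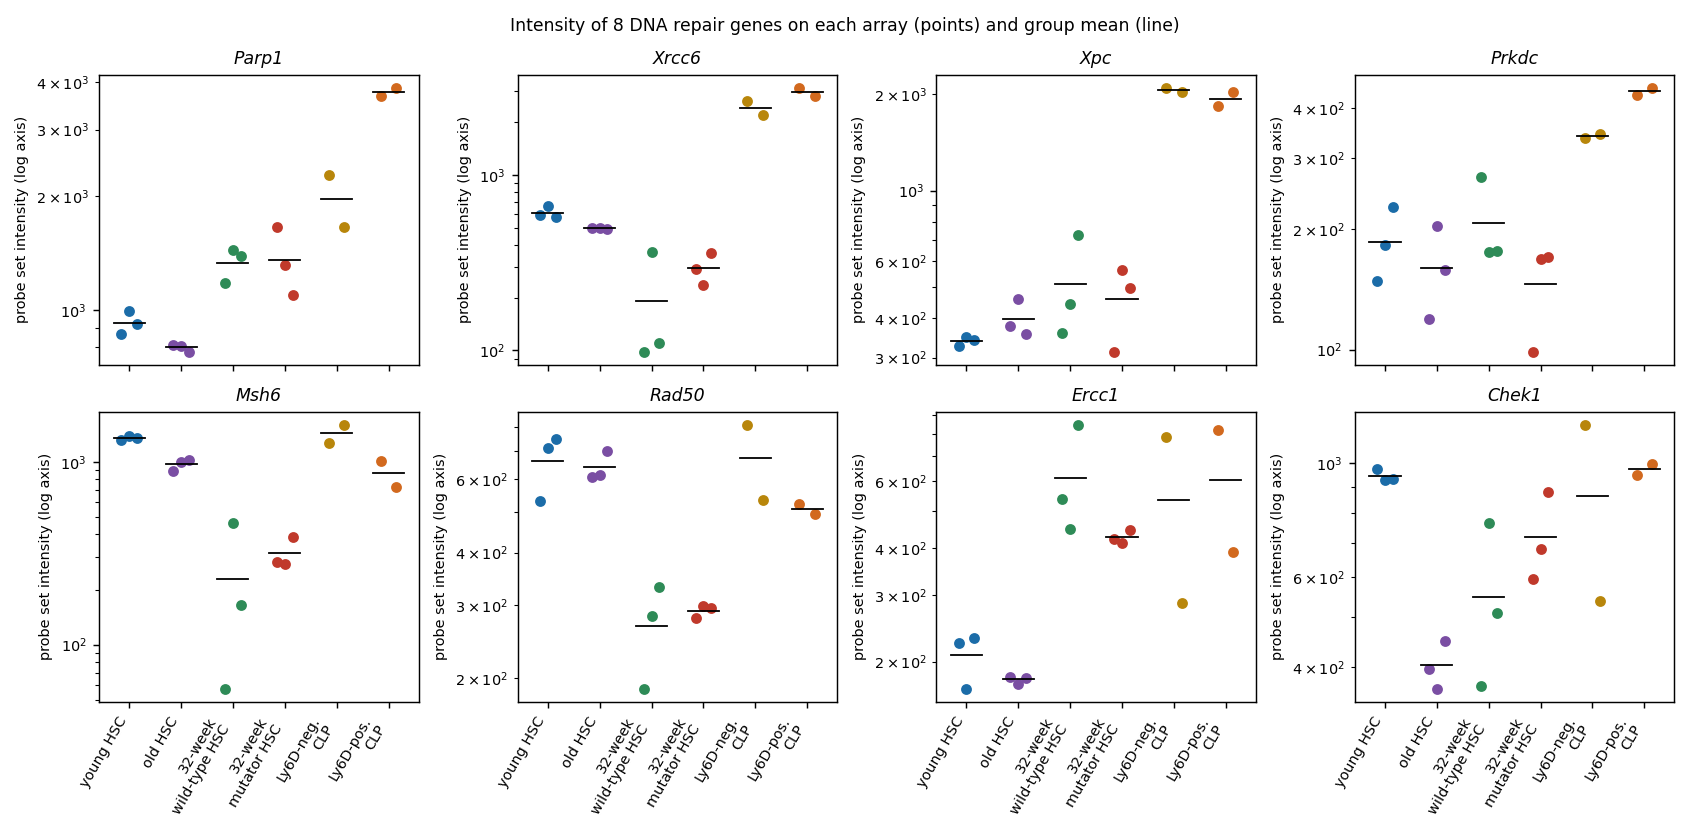
Probe set intensity, on a log axis, of a selection of the 34 genes (Parp1, Xrcc6, Xpc, Prkdc, Msh6, Rad50, Ercc1 and Chek1). Each gene has a panel with its own vertical axis, a point for each of the 16 arrays and a line for the group mean. Xpc, Xrcc6 and Prkdc sit higher on all 4 CLP arrays than on any HSC array, and Msh6 and Rad50 sit lower on the 6 arrays of 32 weeks than on the young and old arrays.

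CLP differed from young HSC in several of the 34 genes, most of them in the direction of a higher level in CLP. Against young HSC, 9 of the 34 genes rose and 1 fell in Ly6D-negative CLP, and 8 rose and 1 fell in Ly6D-positive CLP (limma, Benjamini-Hochberg adjusted p under 0.05 over 14343 genes). Over all genes tested, 9.55% rose and 14.9% fell in Ly6D-negative CLP, and 10.4% rose and 13.9% fell in Ly6D-positive CLP. The genes that rose belong to base excision, nucleotide excision, end joining and the Fanconi pathway, and none of the mismatch, damage signalling or homologous recombination genes passed the limma test in either comparison. Of those 13 genes, 1 (Chek2) had an unadjusted p under 0.05 in Ly6D-negative CLP and 3 (Chek2, Msh3 and Blm) in Ly6D-positive CLP. Over the 34 genes that count was 13 and 17, against 35.5% and 35.4% of all genes. The median log2 change of the 34 genes was 0.12 in Ly6D-negative and 0.51 in Ly6D-positive CLP, beside a median within 0.01 of 0 over all genes. The first median was 0.03 without Ly6D-negative replicate 1 and 0.47 without replicate 2, and the second was 0.29 without Ly6D-positive replicate 1. Both comparisons use the same 3 young arrays. All log2 changes are on the log2(intensity + 16) scale with the standard error (SE) of limma. Here they compare 2 CLP with 3 HSC arrays, while the SE draws on a spread shared by all 16 arrays of the fit.

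Among the base excision genes, Parp1 (chromosome 1), which senses strand breaks and builds poly(ADP-ribose) chains at them, moved most. Its intensity was 867, 993 and 922 in young HSC, 2269 and 1655 in Ly6D-negative CLP and 3677 and 3868 in Ly6D-positive CLP. The 3 groups did not overlap and lay in that order. Parp1 was higher in Ly6D-negative CLP (log2 change 1.05 ± 0.185, adjusted p = 0.00126) and in Ly6D-positive CLP (log2 change 2.01 ± 0.185, adjusted p = 4.85e-06). Its 4 probe sets were all higher in both CLP groups, by 0.31 to 2.19 and by 1.27 to 2.01. Xrcc1 (chromosome 7), the scaffold that brings ligase and polymerase to a single-strand break, read 162, 183 and 184 in young HSC, 258 and 475 in Ly6D-negative and 329 and 359 in Ly6D-positive CLP. All 4 CLP arrays were above all 3 young arrays. It rose in both (log2 change 0.93 ± 0.219, adjusted p = 0.00757, and log2 change 0.91 ± 0.219, adjusted p = 0.00863), and the calls ended without Ly6D-negative replicate 2 (log2 change 0.51) and without Ly6D-positive replicate 2 (0.85).

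Lig1, the ligase that joins the pieces of the newly copied lagging strand and also closes excision gaps, was at 678, 759 and 849.9 in young HSC, 1317 and 1014 in Ly6D-negative and 1521 and 946 in Ly6D-positive CLP. Every CLP array was above every young array, but the difference did not pass the test (log2 change 0.60 ± 0.25, adjusted p = 0.104, and log2 change 0.65 ± 0.25, adjusted p = 0.0775). The other base excision genes did not pass either. Ogg1 and Ung, the glycosylases that take out oxidised guanine and uracil, Apex1, the nuclease that nicks the strand at the abasic site they leave, and Lig3, the ligase that works with Xrcc1, had log2 changes from -0.13 for Ung to 0.64 for Apex1 in Ly6D-negative CLP. In Ly6D-positive CLP they ran from -0.32 for Ung to 0.52 for Apex1.

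In nucleotide excision repair, Xpc (chromosome 6), which finds distorted bases and starts the repair, read 326, 349 and 339.9 in young HSC. It read 2099 and 2029 in Ly6D-negative and 1834 and 2037 in Ly6D-positive CLP. These 4 values were far above every young array. Xpc rose by the largest amount of the 34 genes in both comparisons (log2 change 2.55 ± 0.273, adjusted p = 2.49e-05, and log2 change 2.46 ± 0.273, adjusted p = 2.61e-05). Ercc1 (chromosome 7), the partner of the nuclease that cuts 5 prime of the lesion, read 224, 169 and 231 in young HSC, 785 and 286 in Ly6D-negative and 822 and 389 in Ly6D-positive CLP. The groups did not overlap, but the pairs of CLP replicates stood far apart. Ercc1 passed the test in both (log2 change 1.15 ± 0.381, adjusted p = 0.0433, and log2 change 1.39 ± 0.381, adjusted p = 0.0173). The value rested on single arrays, with a log2 change of 0.44 and no call without Ly6D-negative replicate 1, 1.85 without Ly6D-negative replicate 2 and 0.87 and no call without Ly6D-positive replicate 1. The Ly6D-positive call also ended without young replicate 2 (1.26). In Ly6D-negative CLP the call for Ercc1 also ended without any 1 of the 3 young, 3 old or 3 mutator arrays. Ercc2, a helicase of the transcription factor that opens the helix, and Xpa, which checks the damaged strand, did not pass, with log2 changes of 0.28 and -0.02 in Ly6D-negative and 0.23 and -0.17 in Ly6D-positive CLP.

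End joining genes moved in opposite directions. Xrcc6 (chromosome 15), one subunit of the Ku ring that slides onto broken ends, was at 593, 664 and 575 in young HSC, 2638 and 2202 in Ly6D-negative and 3152 and 2845 in Ly6D-positive CLP. No CLP array came near the young arrays. Xrcc6 rose (log2 change 1.96 ± 0.383, adjusted p = 0.00251, and log2 change 2.27 ± 0.383, adjusted p = 0.000825). Prkdc (chromosome 16), the kinase that Ku recruits to the break, read 148, 183 and 227 in young HSC, 337 and 344 in Ly6D-negative and 432 and 451 in Ly6D-positive CLP. The groups did not overlap, and Prkdc rose as well (log2 change 0.84 ± 0.27, adjusted p = 0.0379, and log2 change 1.20 ± 0.27, adjusted p = 0.00579). In Ly6D-negative CLP its call ended without either Ly6D-negative replicate, without young replicate 1 or 2, or without old replicate 3 (log2 change 0.70 to 0.85).

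Xrcc5 (chromosome 1), the other Ku subunit, read 313, 280.1 and 288 in young HSC, 192 and 126 in Ly6D-negative and 42.2 and 203 in Ly6D-positive CLP. All CLP values were below all young values. Xrcc5 fell in Ly6D-positive CLP (log2 change -1.46 ± 0.431, adjusted p = 0.0253), where 1 array of the pair was far below the other, and did not pass in Ly6D-negative CLP (log2 change -0.85 ± 0.431, adjusted p = 0.181). Without Ly6D-positive replicate 1 the log2 change was -0.50 and not called, without Ly6D-positive replicate 2 it was -2.41, and the call also ended without any 1 young array. Xrcc4 and Lig4, the scaffold and the ligase of the last step, were not called, with log2 changes of -0.26 and -0.47 in Ly6D-negative and -0.44 and 0.58 in Ly6D-positive CLP.

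In the Fanconi pathway, Fancd2 and Fanci form the pair that is marked with ubiquitin at a crosslink, Fanca and Fancc belong to the core complex, and Fancl is the ubiquitin ligase of that complex. Fanci (chromosome 7) read 99.8, 120.3 and 124 in young HSC, 283 and 391 in Ly6D-negative and 313 and 219 in Ly6D-positive CLP. It rose in both (log2 change 1.42 ± 0.296, adjusted p = 0.00368, and log2 change 1.10 ± 0.296, adjusted p = 0.0159), with no overlap, and the Ly6D-positive call ended without replicate 1 of that group (log2 change 0.85) or without young replicate 1 (1.01). Fancd2 (chromosome 6) read 28.9, 59.5 and 53.4 in young HSC, 114 and 198 in Ly6D-negative and 219 and 79.4 in Ly6D-positive CLP. No CLP array fell into the young range, and Fancd2 rose in both (log2 change 1.43 ± 0.385, adjusted p = 0.0159, and log2 change 1.28 ± 0.385, adjusted p = 0.0274). Its calls ended without Ly6D-negative replicate 2 (1.07), without Ly6D-positive replicate 1 (0.63) or without young replicate 1 (1.20 and 1.05), and the Ly6D-positive value was 1.93 without Ly6D-positive replicate 2.

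Fanca (chromosome 8) read 64.3, 97.9 and 85.9 in young HSC, 155 and 410.3 in Ly6D-negative and 200.01 and 143 in Ly6D-positive CLP. The CLP arrays were all higher, and Fanca passed the test in Ly6D-negative CLP (log2 change 1.47 ± 0.327, adjusted p = 0.00556) but not in Ly6D-positive CLP (log2 change 0.93 ± 0.327, adjusted p = 0.0559). Without Ly6D-negative replicate 2 the former was 0.80 and not called. Fancl (chromosome 11) read 339, 276 and 294 in young HSC, 229 and 73.8 in Ly6D-negative and 353 and 228 in Ly6D-positive CLP. Ly6D-negative CLP lay below the young range, mostly through replicate 2, and Ly6D-positive CLP overlapped it. Fancl fell in Ly6D-negative CLP (log2 change -1.10 ± 0.341, adjusted p = 0.0322). That value was -0.37 and not called without Ly6D-negative replicate 2, -1.82 without replicate 1, and also not called without any 1 young array. Fancc did not pass (0.11 and 0.19).

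Msh6, which recognises single mispaired bases, was not called in either CLP group. Its intensity was 1309, 1388 and 1352 in young HSC, 1272 and 1589 in Ly6D-negative and 1015 and 731 in Ly6D-positive CLP (log2 change 0.07 ± 0.518, adjusted p = 0.942, and log2 change -0.64 ± 0.518, adjusted p = 0.419). The Ly6D-negative arrays spread around the young ones and the Ly6D-positive arrays lay below them. Msh3, which recognises small loops, and Pms2, the nuclease that follows, had log2 changes of -0.19 and 0.62 in Ly6D-negative and 1.25 and 0.81 in Ly6D-positive CLP, and did not pass. The 6 damage signalling genes ran from -0.92 (Atm) to 0.14 (Nbn, of the complex that holds broken ends) in Ly6D-negative and from -0.56 (Chek2) to 0.16 (Atr) in Ly6D-positive CLP. Among the homologous recombination genes the range was -0.14 (Blm) to 0.68 (Brca2) and -0.01 (Wrn) to 0.85 (Blm). Blm and Wrn are helicases, and Brca1 and Brca2 prepare the broken end and load the strand exchange protein.

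**Figure D2:**
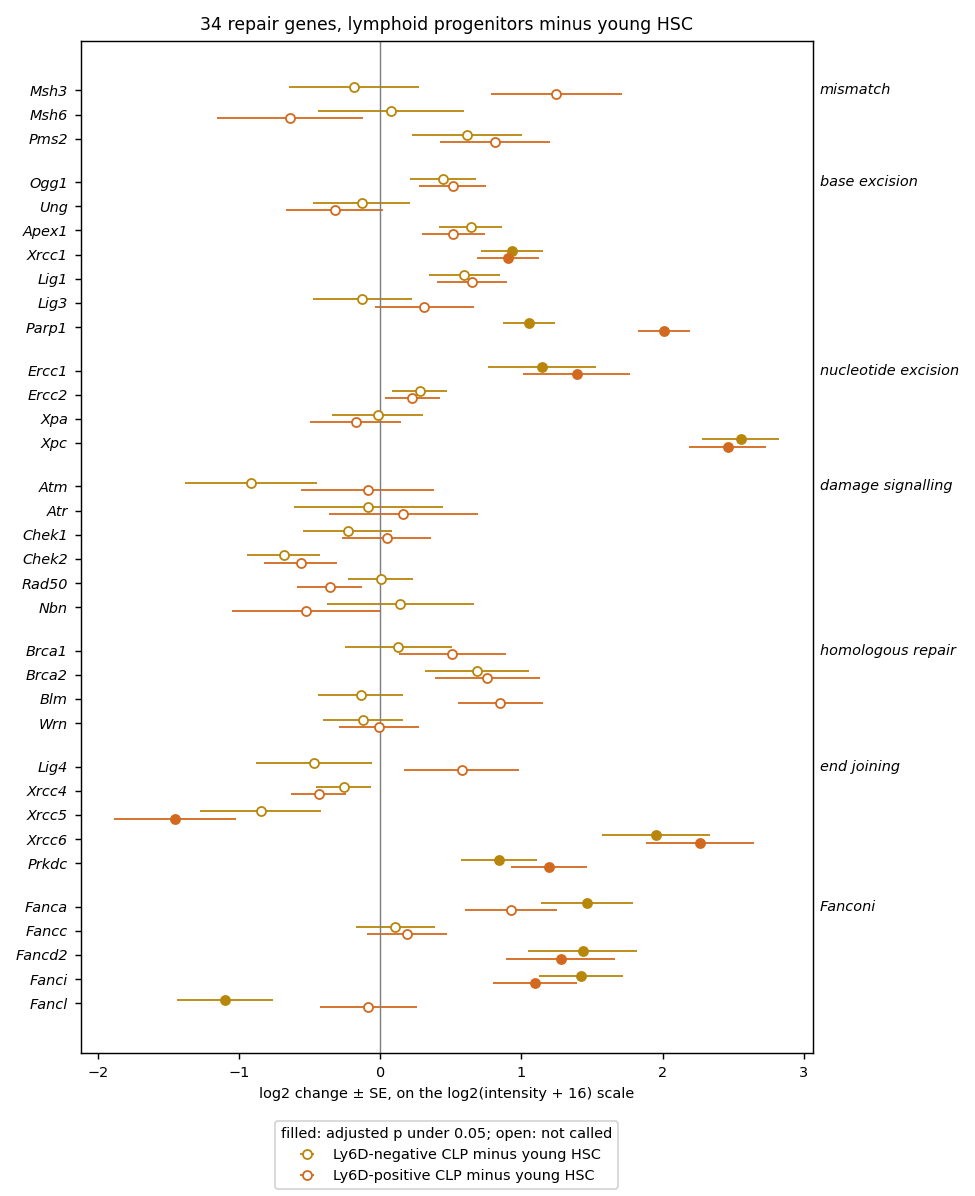
Log2 change ± SE of each of the 34 genes from young HSC to Ly6D-negative and to Ly6D-positive CLP, grouped by role, with filled points for adjusted p under 0.05. Xpc and Xrcc6 lie farthest to the right in both comparisons, and Xrcc5 and Fancl are the only filled points left of 0.

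In the count of arrays, 14 of the 34 genes lay higher and 7 lower on both Ly6D-negative CLP arrays than on all 3 young arrays, against 26.6% and 31% of all genes. For Ly6D-positive CLP these were 15 and 5 genes, against 28.4% and 30% of all genes. Cell cycle transcripts were measured beside them. A list of 12 genes of S phase had a mean log2 level of 10.21 to 10.39 in young HSC, 10.23 to 10.48 in Ly6D-negative and 10.13 to 10.60 in Ly6D-positive CLP, with 1 gene called in each direction in each comparison. A list of 10 mitosis genes had 8.46 to 9.73 in young HSC, 9.17 to 9.67 in Ly6D-negative and 9.94 to 10.03 in Ly6D-positive CLP, and 1 of the 10 was called higher in Ly6D-positive CLP. Neutrophil transcripts differed between replicates. A list of 8 neutrophil genes had a mean log2 level of 6.94 to 8.84 in young HSC, 6.16 to 9.2 in Ly6D-negative and 5.95 to 6.16 in Ly6D-positive CLP, where S100a9 and Lcn2 were at background. S100a8 was at 16.1 and 1371, Ngp at 41.5 and 1121 and Camp at 33.8 and 821 on Ly6D-negative replicates 1 and 2, and Mpo, also a gene of early myeloid progenitors, was at 4402 and 3335. Of the 8 genes, 6 were negative and 1 (Mpo) was called, higher, in Ly6D-negative CLP (median log2 change -0.28), and 7 were negative and none called in Ly6D-positive CLP (median -2.41). In Ly6D-negative and Ly6D-positive CLP, 1 and 3 of 6 macrophage genes fell, 2 and 4 of 5 B cell genes rose, and 1 of 4 T and NK cell genes rose in each. The part of these lists in the repair gene values was not tested. The count of called repair genes was 5 without Ly6D-negative replicate 2 in the Ly6D-negative comparison and 6 without young replicate 1 in the Ly6D-positive one. Averaging young replicates 2 and 3 as 1 sample ended the calls of Ercc1, Prkdc and Fancl in Ly6D-negative and of Xrcc5 in Ly6D-positive CLP. With only the groups compared in the fit, the calls of Ercc1 and Fancl in Ly6D-negative and of Xrcc5 and Fancd2 in Ly6D-positive CLP ended. Where a CLP array is left out its group holds 1 array, which the fit assumes to vary like the other groups. The CLP arrays also differ from young HSC in their Xist and Eif2s3y signals, and cell type and that difference cannot be told apart here.

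The members called in the most of the 7 comparisons were Parp1, in 4, and Ercc1, Xrcc1 and Xrcc6, in 3 each. Their promoters are shown because of these counts, as the 250 bases before a transcript start that RefSeq lists in GRCm38.p6. The windows are read 5 prime to 3 prime on the plus strand, which is the strand of each gene. Parp1 is at chr1:180568641-180568890, Xrcc6 at chr15:82016119-82016368, Xrcc1 at chr7:24546449-24546698 and Ercc1 at chr7:19344821-19345070. For Xrcc6 and Ercc1 the window lies inside the span that RefSeq gives the gene, whose outermost start is further upstream and was not searched. Capitals mark an E2F word or a CCAAT box found on either strand.
Parp1: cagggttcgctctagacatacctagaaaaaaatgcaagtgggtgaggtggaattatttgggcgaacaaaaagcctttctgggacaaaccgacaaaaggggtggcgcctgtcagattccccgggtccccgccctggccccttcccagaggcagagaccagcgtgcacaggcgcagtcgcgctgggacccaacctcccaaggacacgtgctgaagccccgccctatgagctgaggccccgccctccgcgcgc
Xrcc6: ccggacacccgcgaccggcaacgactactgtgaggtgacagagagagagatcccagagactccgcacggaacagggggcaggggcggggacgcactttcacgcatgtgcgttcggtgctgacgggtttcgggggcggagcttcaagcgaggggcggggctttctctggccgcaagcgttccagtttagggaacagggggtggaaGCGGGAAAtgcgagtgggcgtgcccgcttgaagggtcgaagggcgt
Xrcc1: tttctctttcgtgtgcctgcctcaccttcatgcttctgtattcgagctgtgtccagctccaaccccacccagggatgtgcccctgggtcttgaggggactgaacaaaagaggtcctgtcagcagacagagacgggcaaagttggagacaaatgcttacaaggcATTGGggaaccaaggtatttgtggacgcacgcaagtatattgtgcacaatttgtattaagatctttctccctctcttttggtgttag
Ercc1: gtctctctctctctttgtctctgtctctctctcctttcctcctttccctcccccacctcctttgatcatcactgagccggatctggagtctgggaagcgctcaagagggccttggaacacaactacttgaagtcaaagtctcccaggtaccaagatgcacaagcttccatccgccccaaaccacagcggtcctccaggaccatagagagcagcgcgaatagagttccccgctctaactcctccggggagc
The E2F words searched were TTTCCCGC, TTTCGCGC, TTTGCCGC and TTTGGCGC, the other searches were CCAAT and TTTGAA, both strands were read, and matches were allowed to overlap. The Xrcc6 window holds 1 E2F word, whose first base is 46 bases before the start, and the Xrcc1 window holds 1 CCAAT box on the minus strand, 87 bases before it. The Parp1 and Ercc1 windows hold none of the words.

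RefSeq windows were matched for 28 of the 34 genes, 31 windows in all. An E2F word was found in 4 of the 31 (12.9%) and in 1.86% of all 32851 windows of the same length. A CCAAT box was found in 14 of 31 (45.2%) and in 33.8% of all windows, and TTTGAA in 0 of 31 and in 16% of all windows. Besides Xrcc6 the E2F words lie in the promoters of Brca2, Chek2 and Msh3, shown here with 15 bases on either side and the words in capitals. Brca2 is at chr5:150522438-150522475 and Chek2 at chr5:110839816-110839853, both on the plus strand, and Msh3 at chr13:92355179-92355220 on the minus strand, where 2 words overlap. The stretches of Brca2 and Chek2 also lie inside the RefSeq spans of these genes.
Brca2: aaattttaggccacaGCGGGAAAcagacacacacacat
Chek2: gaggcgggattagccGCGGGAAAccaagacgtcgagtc
Msh3: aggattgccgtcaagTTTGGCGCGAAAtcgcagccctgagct
These words begin 168, 152 and 202 bases before the listed start of Brca2, Chek2 and Msh3. In Ly6D-positive CLP against young HSC, Xrcc6 rose and the other 3 genes were not called (0.76, -0.56 and 1.25). A match is a description of letters and not a bound site.

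Between the CLP groups, 1 of the 34 genes rose in Ly6D-positive cells and none fell, against 1.49% and 1.19% of 14343 genes. At an unadjusted p under 0.05 there were 5 of the 34 genes, against 13% of all genes. The 5 were Msh3, Parp1, Blm, Lig4 and Fancl, all higher in Ly6D-positive CLP. Lig4 read 13.7 and 85.2 in Ly6D-positive and 11.7 and 9.46 in Ly6D-negative CLP, and only the 85.2 was above background. The called gene was Parp1, whose 2 Ly6D-positive arrays were both above the 2 Ly6D-negative arrays (log2 change 0.95 ± 0.203, adjusted p = 0.0239). The call ended without either Ly6D-positive replicate (log2 change 0.92 and 0.99) or without Ly6D-negative replicate 2 (0.73), each time with 1 array in that group. It also ended with the mean of all probe sets, with array weights and with only the 4 CLP arrays in the fit. Other genes passed with 1 array left out, Fanca (-1.20) and Fancl (1.74) without Ly6D-negative replicate 1, Blm (1.5) without Ly6D-negative replicate 2, Lig4 (1.93) without Ly6D-positive replicate 1 and Msh3 without 32-week wild-type replicate 1. In the first 4 of these a CLP group holds 1 array. Of the 4 probe sets of Parp1 3 were higher, and the dimmest was at -0.20. Arrays did not overlap for 7 genes higher and 2 lower in Ly6D-positive CLP, against 19% and 16.3% of all genes. The 7 were Msh3, Parp1, Atm, Blm, Lig4, Xrcc6 and Prkdc, and the 2 were Msh6 and Rad50. Msh3 had the largest difference of the 34 and did not pass (log2 change 1.43 ± 0.508, adjusted p = 0.203), with 217 and 84.7 in Ly6D-negative and 365 and 433 in Ly6D-positive CLP. Msh6 (log2 change -0.71 ± 0.568, adjusted p = 0.702) and Lig1 (log2 change 0.05 ± 0.274, adjusted p = 0.981) did not pass. The mitosis list lay at 9.17 to 9.67 in Ly6D-negative and 9.94 to 10.03 in Ly6D-positive CLP, and a list of 5 B cell genes at 5.93 to 6.12 and 7.63 to 8.07. The neutrophil list was at 6.16 to 9.2 in Ly6D-negative and 5.95 to 6.16 in Ly6D-positive CLP, with 8 of 8 genes negative, none called and a median log2 change of -2.02, and the macrophage list had 6 of 6 genes negative and none called. The part of these lists in the Parp1 difference was not tested. Ly6D-positive replicate 2 had the high actin ratio given above.

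In old against young HSC, 1 of the 34 genes fell and none rose, against 0.252% and 1.05% of 13481 genes. At an unadjusted p under 0.05 there were 7 of the 34, against 9.03% of all genes. The gene that fell was Chek1 (chromosome 9), the checkpoint kinase that holds the cycle when replication forks stall. Chek1 read 973, 927 and 929.6 in young and 397, 363 and 450.0 in old HSC. Every old array was below the lowest young array (log2 change -1.20 ± 0.235, adjusted p = 0.0312). Its 4 probe sets above background on at least 8 arrays were all lower in old HSC, by log2 changes of -1.20 to -0.27. The call ended without any 1 of the 6 young and old arrays or without mutator replicate 2, and the log2 change stayed between -1.28 and -1.13. It also ended with median centring, with the mean of all probe sets (-0.71), with all 16 arrays in the fit and with young replicates 2 and 3 averaged as 1 sample.

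Lig1 came next by p and did not pass (log2 change -0.93 ± 0.201, adjusted p = 0.0511). It read 678, 759 and 849.9 in young and 401, 336 and 444 in old HSC, and the groups did not overlap. Without 32-week wild-type replicate 1 or 2, which changes the shared spread and not its value, Lig1 passed (adjusted p = 0.00972 and 0.0331). Msh6 read 1309, 1388 and 1352 in young and 886, 1000.0 and 1021 in old HSC, again without overlap, and did not pass (log2 change -0.47 ± 0.487, adjusted p = 0.9996). That SE draws on the spread shared by all HSC arrays of the fit. The intensity SD of Msh6 was 39.5 in young, 72.6 in old and 211 in 32-week wild-type HSC. The adjusted p of Msh6 therefore does not describe the separation of the young and old arrays alone. Brca1 and Ung had the next largest differences after Chek1. Brca1 read 308, 451 and 394 against 154, 146 and 245 (log2 change -1.04 ± 0.302, adjusted p = 0.177) and Ung 2133, 1492 and 1159 against 1034, 506 and 969 (log2 change -0.94 ± 0.288, adjusted p = 0.207). Neither passed, although the arrays of each did not overlap.

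In old HSC, 26 of the 34 genes had a negative and 8 a positive log2 change, with a median of -0.24 beside -0.01 over all genes. Arrays did not overlap for 13 genes lower and 3 higher in old HSC, against 13.2% and 14% of all genes. The 3 were Msh3, Xpc and Xrcc4. By role the median log2 change was -0.41 for mismatch, -0.30 for base excision, within 0.01 of 0 for nucleotide excision, -0.25 for damage signalling, -0.44 for homologous recombination, -0.15 for end joining and -0.38 for Fanconi genes. Only Chek1 among these was called.

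The same arrays differed in transcripts of the cell cycle, of neutrophils and of macrophages. The S phase list was at 10.21 to 10.39 in young and 9.37 to 9.61 in old HSC, with 12 of 12 genes negative, 1 of them called, and a median log2 change of -0.72. The mitosis list was at 8.46 to 9.73 and 7.60 to 8.55, with 10 of 10 genes negative, none called, and a median of -1.20. The summed intensity of 8 neutrophil genes was 1319.8 to 5718 in young and 171 to 1555 in old HSC. All 8 neutrophil genes were negative, with a median log2 change of -2.19 and none called. An unadjusted p under 0.05 was found for 4 of these 8 and for 8 of the 10 mitosis genes. A list of 6 macrophage genes had a mean log2 level of 5.86 to 6.70 in young and 5.39 to 5.41 in old HSC, where C1qa and C1qb were at background. All 6 were negative (median log2 change -0.69), 6 had an unadjusted p under 0.05 and 1, Vcam1, was called lower. Of 5 HSC markers 2, Procr and Slamf1, were called higher in old HSC, with the list at 10.43 to 10.64 in young and 10.95 to 11.22 in old HSC. The part of these in the repair gene values was not tested.

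**Figure D3:**
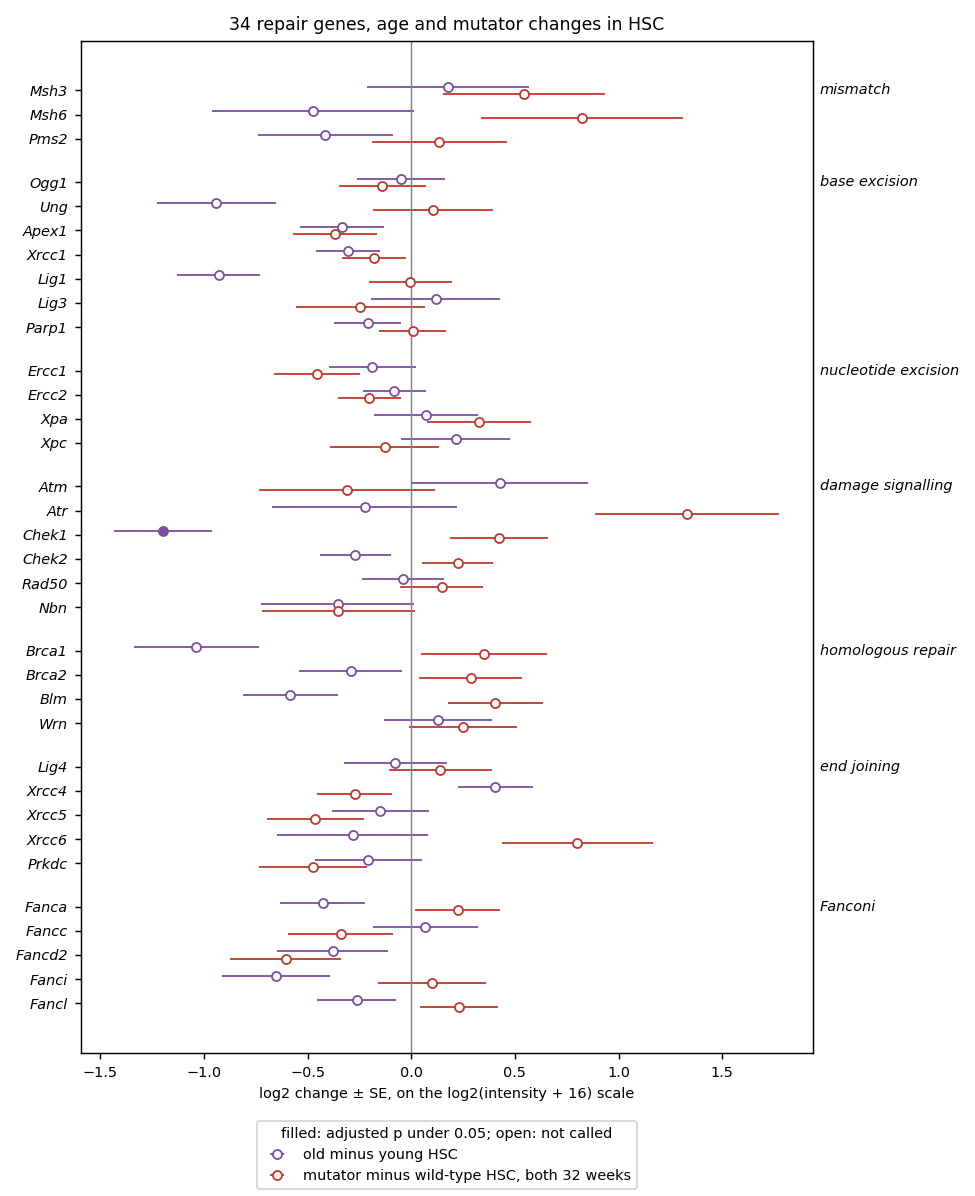
Log2 change ± SE of each of the 34 genes from young to old HSC and from wild-type to mutator HSC of 32 weeks, grouped by role, with a filled point for adjusted p under 0.05. Chek1 from young to old is the only filled point, and the other points are open on both sides of 0.

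Between mutator and wild-type HSC of the same age of 32 weeks, none of the 34 genes and none of the 13481 genes tested passed the limma test, a called share of 0%, while 984 genes (7.3%) had an unadjusted p under 0.05. Of the 34 genes, 3 had an unadjusted p under 0.05. Atr, the kinase that responds to stalled forks, read 60.6, 152 and 30.7 in wild-type and 101, 258 and 282 in mutator HSC (log2 change 1.33 ± 0.444, adjusted p = 0.607). The other probe sets of Atr had smaller log2 changes here, of 0.0036 and 0.55. Fancd2 read 124, 69.2 and 69.9 in wild-type against 34.4, 71.0 and 50.5 in mutator HSC (log2 change -0.61 ± 0.268, adjusted p = 0.679), and Xrcc6 98.7, 365 and 110.0 in wild-type against 292, 235 and 360.1 in mutator HSC (log2 change 0.80 ± 0.363, adjusted p = 0.682). The groups overlapped for all 3. Msh6 read 57.3, 465 and 164 in wild-type and 283, 276 and 387 in mutator HSC (log2 change 0.82 ± 0.487, adjusted p = 0.78), and Lig1 read 409.7, 693 and 599 against 483, 632 and 552 (adjusted p = 0.999). Both overlapped.

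The arrays of Apex1, Ercc1 and Prkdc did not overlap, all lower in mutator HSC (-0.37, -0.45 and -0.47), 3 of 34 genes against 2.97% of all genes, and none was higher, against 3.11%. The 34 genes divided into 19 positive and 15 negative log2 changes with a median of 0.10, which was -0.07 without wild-type replicate 1, 0.18 without wild-type replicate 2, 0.01 without mutator replicate 2 and -0.02 with the mean of all probe sets. The 32-week wild-type arrays were the most variable group, and replicate 2 of it stood above the other 2 in Msh6, Atr and Xrcc6. Without that replicate, Msh6 (log2 change 1.51), Atr (1.83) and Xrcc6 (1.36) passed the test, as did 221 of all genes. Leaving out the highest wild-type array raises these 3 differences in itself. The actin ratio of replicate 2 was 4.24, against 4.90 and 5.26 on wild-type replicates 1 and 3. Replicate 3, which was kept, carries the Eif2s3y signal.

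The change from wild type to mutator was also set against the change from young to old in 1 contrast. None of the 34 genes passed, while 0.0519% of all genes passed with a positive and 0.46% with a negative difference. At an unadjusted p under 0.05 there were 8 of the 34, against 7.74% of all genes. The nearest was Chek1, with a difference of 1.62 ± 0.333 (adjusted p = 0.0661), made up of 0.42 in mutators and -1.20 in old HSC. Lig1 (log2 change 0.93 ± 0.285, adjusted p = 0.312) and Brca1 (log2 change 1.39 ± 0.427, adjusted p = 0.312) followed, and Msh6 had 1.30 ± 0.688 (adjusted p = 0.739). Without 32-week wild-type replicate 2, Chek1 (1.89) and Xrcc6 (1.64) passed, and without wild-type replicate 1 Chek1 passed (1.37). The median difference over the 34 genes was 0.22, and it was 0.08 without wild-type replicate 1 and 0.42 without wild-type replicate 2. In this contrast 12 of 12 S phase, 10 of 10 mitosis, 8 of 8 neutrophil and 6 of 6 macrophage genes were positive, with none called. Of these, 9, 3, 1 and 5 had an unadjusted p under 0.05, and the S phase median was 0.91. The part of these lists in the repair gene values was not tested.

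The 32-week wild-type HSC themselves differed from young HSC in 10 of the 34 genes, 3 higher and 7 lower, against 6.42% and 17.7% of 13481 genes. Age and the high 3 prime to 5 prime ratio of all 6 arrays of 32 weeks cannot be told apart in this comparison. Msh6 (chromosome 17) fell most. It read 1309, 1388 and 1352 in young and 57.3, 465 and 164 in 32-week wild-type HSC (log2 change -2.88 ± 0.487, adjusted p = 0.00209), far below the young range on each array. The 3 mutator arrays were at 283, 276 and 387, also below every young and old array. Xrcc6 read 593, 664 and 575 in young against 98.7, 365 and 110.0 in 32-week wild-type HSC (log2 change -1.82 ± 0.363, adjusted p = 0.00464). Rad50 (chromosome 11), of the complex that bridges broken ends, read 530.0, 713 and 749.5 in young against 189, 282 and 330.0 in 32-week wild-type HSC (log2 change -1.28 ± 0.2, adjusted p = 0.00144). The arrays of both genes did not overlap.

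Ung (chromosome 5) read 2133, 1492 and 1159 in young and 741, 672 and 518 in 32-week wild-type HSC (log2 change -1.26 ± 0.288, adjusted p = 0.00928). Xrcc5 read 313, 280.1 and 288 in young against 179, 167 and 111 in 32-week wild-type HSC (log2 change -0.90 ± 0.234, adjusted p = 0.0169). Chek1 read 973, 927 and 929.6 in young against 367, 766 and 510.4 in 32-week wild-type HSC (log2 change -0.83 ± 0.235, adjusted p = 0.0253). All 3 fell without overlap. The call for Xrcc5 ended without young replicate 1 (-0.86) or 32-week wild-type replicate 3 (-0.71), and that for Chek1 without any 1 young array or without 32-week wild-type replicate 1 (-0.58) or 3 (-0.81). Atr (chromosome 9) read 272, 337 and 337 in young and 60.6, 152 and 30.7 in 32-week wild-type HSC (log2 change -1.97 ± 0.444, adjusted p = 0.00871). The groups did not overlap on this probe set, but the other 2 probe sets of Atr were higher in 32-week wild-type HSC, by 0.95 and 1.13, and the mean of all 3 gave 0.04.

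Ercc1 was the largest rise. It read 224, 169 and 231 in young and 540.2, 448 and 846 in 32-week wild-type HSC (log2 change 1.45 ± 0.208, adjusted p = 0.000999), without overlap, and its 3 probe sets above background were all higher, by 0.21 to 1.45. Xrcc1 read 162, 183 and 184 in young against 227, 256 and 332 in 32-week wild-type HSC (log2 change 0.57 ± 0.154, adjusted p = 0.0208). Parp1 read 867, 993 and 922 in young against 1179, 1444 and 1389 in 32-week wild-type HSC (log2 change 0.52 ± 0.162, adjusted p = 0.0379). Neither overlapped, and both calls depended on single arrays. That for Xrcc1 ended without any 1 young array or without 32-week wild-type replicate 3 (0.42), and that for Parp1 without any 1 young or old array, mutator replicate 2, or wild-type replicate 2 or 3 (0.46 and 0.49). The other probe sets of Parp1 had log2 changes of -0.92, -0.58 and 0.24, so its direction depended on the probe set.

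Lig1 did not pass in 32-week wild-type against young HSC (log2 change -0.44 ± 0.201, adjusted p = 0.136). Arrays did not overlap for 5 genes higher and 11 lower, against 12.9% and 25.4% of all genes, and the median log2 change of the 34 was -0.13 beside -0.04 over all genes. That median was -0.34 without 32-week wild-type replicate 2 and -0.04 without replicate 3. The count of called genes was 16 without 32-week wild-type replicate 2, and 6 without wild-type replicate 3 or young replicate 1. Averaging young replicates 2 and 3 as 1 sample ended the calls of Xrcc1, Parp1 and Chek1. The S phase list was at 9.15 to 9.79 in 32-week wild-type HSC, below the young range, with 7 of 12 genes called lower. The mitosis list was at 8.11 to 9.28 there and 8.46 to 9.73 in young HSC, with 9 of 10 genes negative, 1 (Plk1) called lower and a median log2 change of -0.72. The macrophage list was at 5.36 to 5.68 and 5.86 to 6.70, with 6 of 6 genes negative and 2 (Cd5l and Vcam1) called lower. The HSC markers were at 9.92 to 10.39 and 10.43 to 10.64, with 2 of 5 (Kit and Mecom) called lower. The part of these lists in the repair gene values was not tested. Replicate 3 of the wild-type arrays is the one with Eif2s3y signal.

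**Figure D4:**
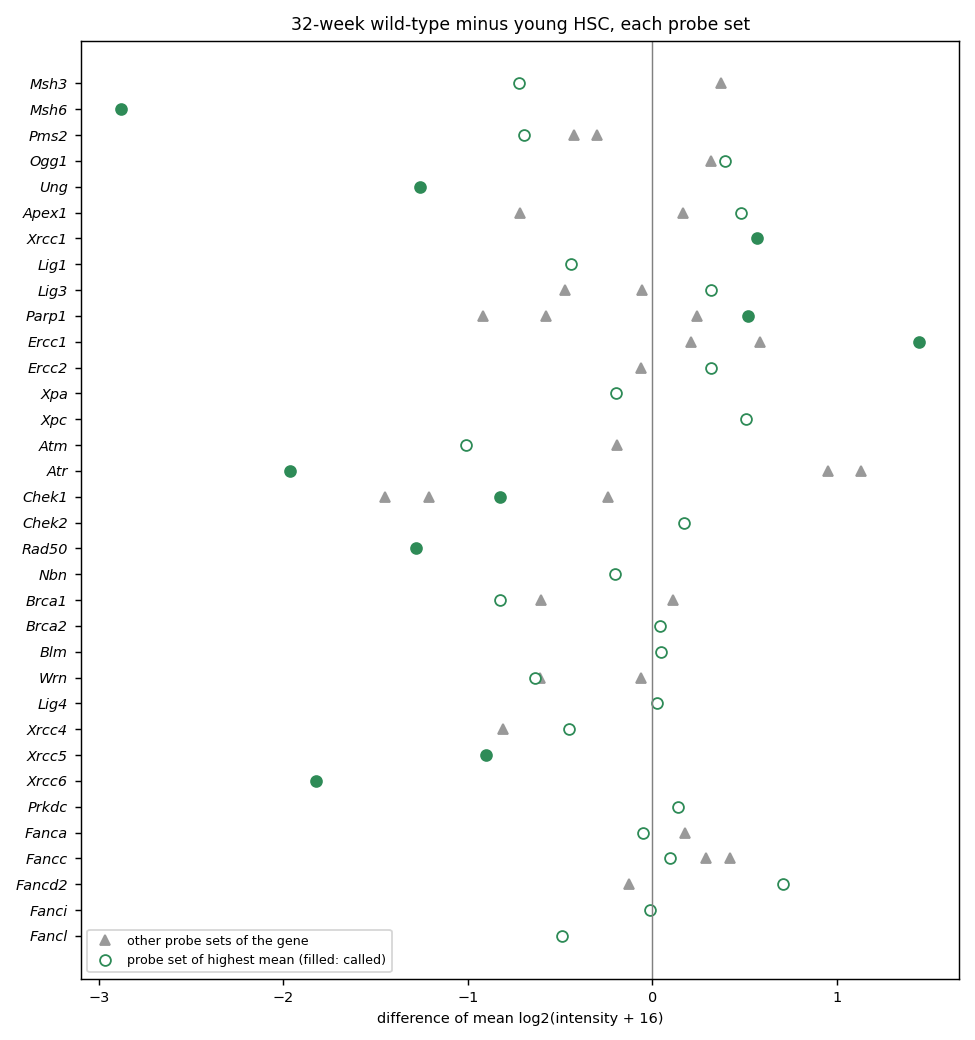
Log2 change from young to 32-week wild-type HSC of each probe set of the 34 genes that was above background on at least 8 arrays. There is one row per gene, with the probe set used marked. Msh3, Apex1, Lig3, Parp1, Ercc2, Atr, Brca1, Fanca and Fancd2 have probe sets on both sides of 0. Those of Chek1 lie left of 0 and those of Ercc1 right of 0.

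A wider list of 103 other repair genes, of which 92 are on the array, gave the setting. None of the 90 tested was called in old against young HSC, in mutators or in the difference of effects (limma), where 15, 5 and 12 had an unadjusted p under 0.05, against 9.03%, 7.3% and 7.74% of all genes. In 32-week wild-type against young HSC, where 6.42% of all genes rose and 17.7% fell, 4 rose, Ddb2 (0.85), Rad9a (0.74), Alkbh3 (0.66) and Mpg (0.55), and 23 fell. The largest falls were Smc6 (-2.12), Rad54l (-1.77), Hus1 (-1.75) and Timeless (-1.68). Between the CLP groups 1 of 91 fell, Gtf2h1 (-1.0), against 1.19% of all genes. Against young HSC, 9 of the 91 rose and 8 fell in Ly6D-negative CLP, where 9.55% of all genes rose and 14.9% fell. In Ly6D-positive CLP 19 of the 91 rose and 9 fell, against 10.4% and 13.9%. Rad9a, of the clamp that activates the Atr pathway, rose most in both (1.94 and 2.31), followed by Poll, a polymerase of end joining (1.33 and 1.74). In Ly6D-negative CLP Alkbh2 (1.29) and Timeless (1.17) came next, and Fancf (-1.81), Dclre1a (-1.73), Hus1 (-1.62) and Rad23b (-1.56) fell most. In Ly6D-positive CLP Brip1 (1.43) and Neil1 (1.41) came next, and Hus1 (-2.14), Polk (-1.99), Smug1 (-1.57) and Rmi1 (-1.46) fell most.

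Over the 7 comparisons, 16 of the 34 genes were called at least once and 18 in none, and 45.6% of the 13481 genes tested in all 7 were called at least once. The 18 hold Msh3 and Pms2 of mismatch repair, Ogg1, Apex1, Lig1 and Lig3 of base excision, Ercc2 and Xpa of nucleotide excision, Atm, Chek2 and Nbn of damage signalling, all 4 homologous recombination genes, Lig4 and Xrcc4 of end joining and Fancc of the Fanconi pathway. Their log2 changes lay between -1.04 and 1.43 over the 7 comparisons. A p that misses the threshold does not show that the levels were equal.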

How the data were processed

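RNA of sorted cells was measured on 16 Affymetrix mouse arrays, and each cRNA was made from 4000 to 7000 sorted cells, as the labels' protocols state. The authors deposited 1 intensity per probe set and array, on a linear scale and up to 32951. How probes were summarised, corrected and normalized is not stated in the sources used here, and 0 columns of values were left out. The number of arrays per group, 2 or 3, limits the precision.

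Of 45101 probe sets, 34945 carry 1 gene symbol in GEO's platform annotation, 932 several, 9211 none, and 64 are controls. Per gene the probe set of highest mean log2(intensity + 16) over 16 arrays was used, which gave 18193 genes. Chromosomes and promoters are from RefSeq, GRCm38.p6. Genes entered a fit if above the 40th percentile of the array on at least 3 of 12 HSC arrays (13481 genes) or 2 of 16 arrays (14343 genes). Linear models of the group means came from limma 3.58.1 (R 4.3.3; lmFit, eBayes), with Benjamini-Hochberg adjustment over all genes of the fit and a threshold of 0.05. The fit was tested on simulated data in which a gene had the same SD in all groups. That test does not cover the unequal spread of the groups given above. HSC comparisons used 12 arrays and CLP comparisons all 16.

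The 34 genes, the lists and the tests were chosen with earlier results of these data known. In each comparison the text gives full statistics for called genes whose arrays do not overlap, or the 3 genes of smallest p as values where none is called, and always Msh6 and Lig1. Of the other repair genes it names up to 4 of the largest called changes in each direction. Brca1, Ung and other uncalled genes given by value are outside the rule, picked once their values were known. Replicate numbers were checked as pairs by the correlation of deviations from the group means, which ran from -0.06 to 0.51. The highest, 0.51 and 0.42, were for replicates 1 and 2 of old and young HSC. The main fits did not pair the arrays, and a replicate block was run as an alternative. The alternatives were quantile normalization, median centring, other filters, pseudocounts of 1 and 64, the mean of all probe sets, other limma settings, array weights, the replicate block, other sets of arrays, each array left out, and, added after the data were seen, young replicates 2 and 3 averaged as 1 sample.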

Additional observations from a re-analysis of the deposited data

How the results depend on the processing

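For old against young HSC, where 1 of the 34 genes was called, the count was 2 with quantile normalization, with a pseudocount of 64 and with the replicate block, 10 with array weights, 4 with only the groups compared, and 0 with median centring, with all 16 arrays and with young replicates 2 and 3 averaged, and 0 to 2 with each array left out. The difference of effects went from 0 genes to 1 with quantile normalization and 4 with array weights, and to 0 to 2 with each array left out. Ly6D-positive against Ly6D-negative CLP went from 1 gene to 0 with the mean of all probe sets, with array weights and with only the groups compared, and to 0 to 3 with each array left out. Mutator against wild type stayed at 0 except at 3 without wild-type replicate 2. With each array left out the counts were 6 to 16 for 32-week wild-type against young HSC (10 with all arrays), 5 to 13 for Ly6D-negative (10) and 6 to 12 for Ly6D-positive CLP (9) against young HSC. The other alternatives gave 7 to 15, 7 to 12 and 8 to 12 there.

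With the mean of all probe sets, 2 directions reversed in 32-week wild-type against young HSC, Parp1 to -0.18 (adjusted p = 0.440) and Atr to 0.038 (adjusted p = 0.952), since their probe sets point both ways. That mean also takes in probe sets at background, and it moved Ercc1 to 0.61, Rad50 to -0.67 and Xrcc6 to -0.91 there, with the calls kept. Of 834 values of called genes under an alternative, 731 kept the call and the direction, 101 lost the call and 2 reversed. Of 5312 values of uncalled genes, 100 became called. The calls that held in every alternative and with every array left out were 5 of 10 in 32-week wild-type HSC (Msh6, Ung, Ercc1, Rad50 and Xrcc6), 4 of 10 in Ly6D-negative CLP (Parp1, Xpc, Xrcc6 and Fanci), 4 of 9 in Ly6D-positive CLP (Parp1, Xpc, Xrcc6 and Prkdc) and none in old HSC or between the CLP groups. Apart from the calls given in the report, those of Ercc1 without a filter and with a pseudocount of 64, of Prkdc with robust eBayes and with array weights and of Fancl with the mean of all probe sets ended in Ly6D-negative CLP, and that of Fancd2 in Ly6D-positive CLP ended with only the groups compared (adjusted p = 0.0768) and was at an adjusted p of 0.0542 with the replicate block. In 32-week wild-type against young HSC, Parp1 was not called under 7 alternatives (one of them a reversal), Chek1 under 4, Xrcc1 under 4, Xrcc5 under 2 and Atr under 1. With a CLP array left out, its group holds 1 array that is assumed to vary like the other groups. Over all genes, old against young HSC gave 176 calls, 1007 with only the groups compared, 1879 with array weights, 93 with young replicates 2 and 3 averaged and 88 to 292 with each array left out. The difference of effects gave 69, 483 with array weights, 38 with the young replicates averaged and 23 to 147 with each array left out. Ly6D-positive against Ly6D-negative CLP gave 384, 105 with array weights, 0 with only the groups compared and 271 to 748 with each array left out. For 32-week wild-type against young HSC 3258 became 2031 with the young replicates averaged and 2040 to 4158 with each array left out. The causes were not tested. Titles give the replicates only a number, and own-number arrays correlated best for 2 of 3 old, 2 of 3 mutator and 1 of 3 32-week wild-type arrays. In each CLP comparison own-number arrays did so for 2 of 2 arrays, at correlations of 0.0008 to 0.12. In a group of 2 arrays the deviations from the mean are mirror images, so this count cannot decide whether the arrays are pairs. Groups of 2 or 3 arrays, a linear scale of unstated normalization and the 3 prime to 5 prime ratio limit all of these values.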
